A study of Mus musculus with 24 samples.

Results

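Heat shock (HS) was compared with control in the livers of 6 wild-type mice, 3 per group, out of 24 mice in the series. The HS mice carry the numbers 4, 5 and 6 in the labels and the control mice 1, 2 and 3. Every probe set of the array other than its controls was compared, 12422 in all, of which 10833 carry 1 gene symbol. These stand for 8251 genes, and the brightest probe set stands for a gene that has several. All 6 mice were males of 9 to 12 weeks on a mixed SV129/C57BL/6 background and ate control chow. The HS mice spent 40 minutes at 42 °C according to the methods, in a chamber that the labels put at about 43 °C, and the control mice stayed at room temperature. Liver was sampled 4 hours after HS according to the methods. The same comparison was available in 3 other sets of mice, each with its own unheated group of 3: PPARα-null mice, which lack this fatty acid-activated nuclear receptor in every cell, and mice of both strains that ate the PPARα agonist WY at 500 ppm. They share no mouse with the wild-type livers on control chow.

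Heat unfolds proteins, and cells answer by making chaperones, which hold or refold them. The answer is driven mainly by heat shock factor 1 (HSF1), a transcription factor that binds heat shock elements, short alternating repeats of GAA and TTC, in the promoters of chaperone genes. Cytosolic Hsp70, Hsp110 and Hsp40 proteins work as one refolding machine, Hsp90 and its co-chaperones finish and hold signalling proteins, and Hsp60 with its lid Hsp10 folds proteins inside mitochondria. Hepatocytes, which secrete plasma proteins and burn fatty acids between meals, carry all of these systems.

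Values are normalized probe set intensities with a floor of 15.7, below which no order can be read, and changes are log2 differences of group means (HS minus control). Of the 12422 probe sets 4107 lay at the floor on all 6 arrays. A change was called at a Benjamini-Hochberg adjusted p under 0.05 in limma's fit over the 24 arrays, and an unadjusted p is named as such. *Ppara* itself read 103 to 210.2 in the 12 null mice and 181 to 357 in the 12 wild-type mice. Among the 6 arrays HS mouse 5 stood apart: its log2 values correlated at 0.94 to 0.96 with those of the other 5 mice, which correlated at 0.97 with each other throughout. Summed markers of hepatocytes were alike, at 45465 to 46870 in HS mice and 45790 to 46663 in control mice. Control mouse 1 held muscle transcripts, with 13 muscle markers summing to 1398 against 315 to 418 in the other 5 mice and *Acta1*, skeletal muscle actin, at 662. Transcripts of squamous epithelium, a set chosen after its values were seen, summed to 860 and 1539 in control mice 1 and 2 against 331 to 372 in the other 4 mice, while *Krt5*, *Krt14* and *Sfn* of the same set lay at the floor in all 6. Neutrophil markers summed to 1776 in HS mouse 5 and to 561 to 755 in the others. The part that any of these differences has in the results below was not tested. In whole tissue, fewer cells of a type and less RNA per cell cannot be told apart.

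HS raised 4 genes in wild-type liver, 3 of which are on the HSF1 list described below, and lowered 1 probe set. The 4 rises are 0.0322% of the probe sets tested and the fall is 0.00805%. *Hspd1*, the mitochondrial chaperonin Hsp60, read 2598, 2335 and 2838 in HS mice 4, 5 and 6, against 1600.3, 1667 and 1526 in control mice 1, 2 and 3. The 3 HS mice lay above the 3 control mice with no overlap, a 1.62-fold rise (log2 0.69, SE 0.10, limma adjusted p = 0.034). *Hspe1*, the Hsp10 lid of the same chamber, read 1696, 1420.2 and 1984 in the HS mice, against 812, 851 and 760.2 in the control mice (log2 1.06, SE 0.18, adjusted p = 0.047). This was a 2.09-fold rise without overlap, and for both genes HS mouse 6 was the highest and HS mouse 5 the lowest of the heated mice. *Cacybp*, which binds Hsp90 and a ubiquitin ligase complex, read 193, 151 and 213 in the HS mice, against 72.2, 74.9 and 76.7 in the control mice (log2 1.30, SE 0.20, adjusted p = 0.034). The 3 control mice were nearly equal for this gene and all 3 HS mice lay above them, a 2.47-fold rise. *Acsl4*, which attaches coenzyme A to arachidonic acid, read 241, 248 and 349 in the HS mice, against 91.8, 75.0 and 126 in the control mice (log2 1.53, SE 0.25, adjusted p = 0.040). The rise of *Acsl4* was 2.89-fold, again without overlap. A dimmer probe set of *Acsl4* read 20.3, 18.1 and 21.7 in the HS mice and 15.7, 15.7 and 21.8 in the control mice, near the floor throughout. A dimmer one of *Hspd1* read 75.6, 83.3 and 81.6 in the HS mice and 85.5, 55.5 and 74.4 in the control mice, so it overlapped. The probe set that fell has no gene symbol here and read 2134, 2271 and 2011 in the HS mice, against 2484, 2460.1 and 2707 in the control mice (log2 -0.25, SE 0.04, adjusted p = 0.040). The calls rested on narrow margins. Scaling each array to a common median instead left no probe set called. With only these 6 arrays in the fit 1 was, and it was neither one of the 4 genes nor the probe set that fell. Without HS mouse 5 the fit called 12 probe sets, the 4 genes among them. Without HS mouse 4 it called none, and without HS mouse 6 or control mouse 1 it called 2, with none of the 4 genes among them. Without control mouse 2 *Hspd1* alone of the 4 was called, and without control mouse 3 all but *Hspe1* were. The log2 change of *Hspd1* stayed between 0.63 and 0.77 and that of *Hspe1* between 0.94 and 1.19 when any 1 of the 6 mice was left out.

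**Figure D1:**
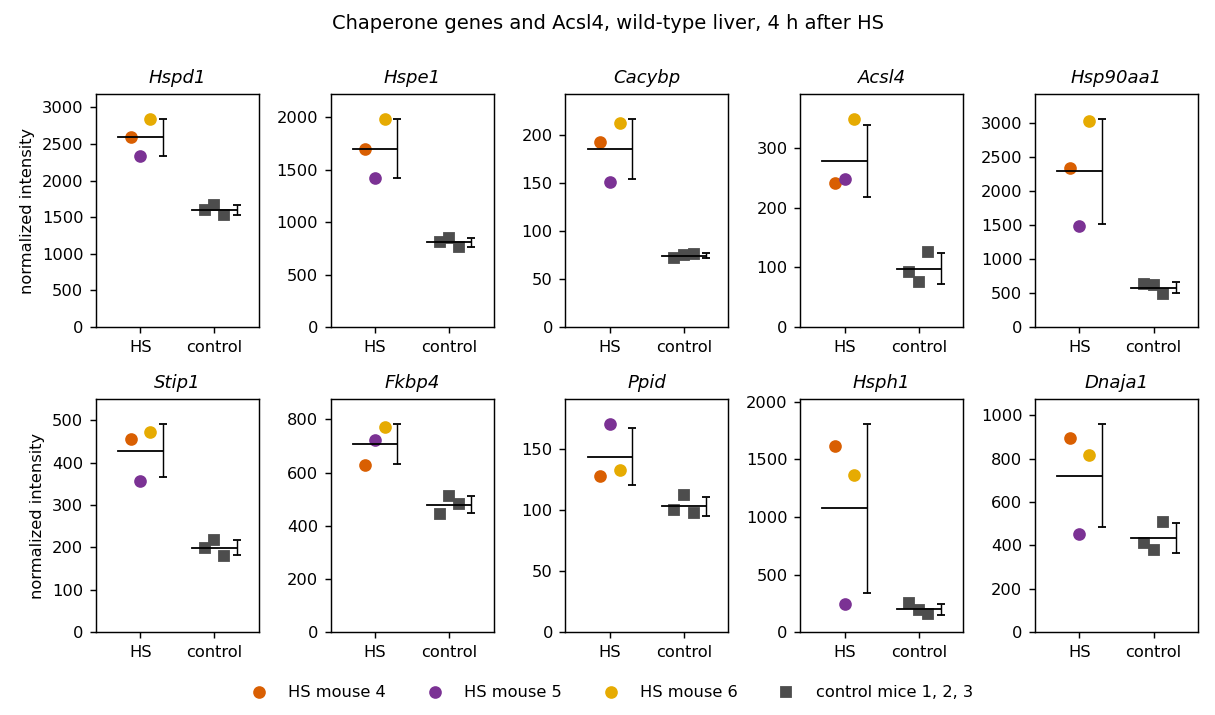
Normalized intensity of 10 genes in the 3 HS mice (coloured points) and the 3 control mice (squares) of the wild-type strain, with the group mean (horizontal line) and its SD (bar). For *Hspd1*, *Hspe1*, *Cacybp* and *Acsl4* every HS mouse lies above every control mouse, while for *Hsph1* HS mouse 5, at 244, lies among the control mice, at 157 to 251.

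*Hspd1* and *Hspe1* lie head to head, and the RefSeq sequence between their starts holds a heat shock element. With the element written as 3 alternating units of GAA and TTC, each 2 bases apart (GAANNTTCNNGAA or TTCNNGAANNTTC, read on both strands), 179 of 27025 genes in the promoter table (0.662%) hold one between 250 bases before and 50 after their start. Among the genes of the array found in that table the count was 37 of 6576 (0.563%). Of 73 members of the chaperone lists on the array 60 were in that table. Among these 60 it was 5 (8.33%), namely *Hspd1*, *Hspe1*, *Hsph1*, *Chordc1* and *Dnajb6*. *Hspd1* and *Hspe1* share a single element, and both are counted. *Hsp90aa1* and *Ppid*, described below, are absent from the table, so their promoters were not searched. The 300 bases of *Hspe1* below lie on the plus strand of GRCm38.p6 at chr1:55087898-55088197, and their 18 capitals, 89 to 72 bases before its start, hold 4 units in a row. The same 18 bases lie 144 to 127 bases before the second annotated start of *Hspd1*, on the minus strand. *Hsph1*, at chr5:149636266-149636565 on the minus strand, holds 1 element from 16 to 28 bases after its start. *Hnrnpa2b1*, an RNA-binding splicing regulator that is not a chaperone, is shown because it was the other gene with the element among the bright genes whose HS mice all read above the control mice, and its window is chr6:51469845-51470144 on the minus strand. *Chordc1*, an Hsp90 co-chaperone at chr9:18292017-18292316 on the plus strand, is shown because its run of units, 23 bases, is the longest of the 6 genes named here with the element, while no change was called. Capitals mark the element in each.
Hspe1: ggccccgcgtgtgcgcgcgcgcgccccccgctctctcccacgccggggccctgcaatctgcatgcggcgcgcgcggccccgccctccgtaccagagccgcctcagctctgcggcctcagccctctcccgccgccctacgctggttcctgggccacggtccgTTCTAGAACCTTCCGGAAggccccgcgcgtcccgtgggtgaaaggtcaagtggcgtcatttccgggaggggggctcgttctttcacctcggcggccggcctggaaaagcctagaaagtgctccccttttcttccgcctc
Hsph1: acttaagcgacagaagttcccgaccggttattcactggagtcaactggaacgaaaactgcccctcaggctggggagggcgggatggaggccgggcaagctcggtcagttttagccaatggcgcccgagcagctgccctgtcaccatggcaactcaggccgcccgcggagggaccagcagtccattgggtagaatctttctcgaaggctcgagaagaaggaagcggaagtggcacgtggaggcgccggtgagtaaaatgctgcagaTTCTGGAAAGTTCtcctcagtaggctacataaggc
Hnrnpa2b1: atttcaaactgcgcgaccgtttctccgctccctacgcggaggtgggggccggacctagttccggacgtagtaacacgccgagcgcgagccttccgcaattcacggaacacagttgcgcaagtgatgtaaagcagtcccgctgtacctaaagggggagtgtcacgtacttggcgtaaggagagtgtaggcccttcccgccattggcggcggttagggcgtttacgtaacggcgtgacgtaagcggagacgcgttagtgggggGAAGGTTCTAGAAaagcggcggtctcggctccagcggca
Chordc1: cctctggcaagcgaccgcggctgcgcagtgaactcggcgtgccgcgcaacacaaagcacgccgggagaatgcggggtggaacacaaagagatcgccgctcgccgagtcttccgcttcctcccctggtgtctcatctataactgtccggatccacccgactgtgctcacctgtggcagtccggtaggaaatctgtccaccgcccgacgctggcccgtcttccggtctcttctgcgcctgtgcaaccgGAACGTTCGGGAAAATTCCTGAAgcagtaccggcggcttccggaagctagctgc
Genes with the element differed in their values after HS. *Chordc1* read 223, 231 and 163 in HS mice, against 173, 177 and 152 in control mice (log2 0.28, unadjusted p = 0.12), and *Dnajb6*, an Hsp40 protein, read 295, 198 and 338 in HS mice, against 250.2, 203 and 309 in control mice (log2 0.11, unadjusted p = 0.63). Both overlapped between the groups, and *Acsl4* and *Cacybp*, which rose, hold no such element in this window, which says nothing of elements elsewhere. Among genes of mean intensity 100 or more in the higher group whose groups did not overlap and whose unadjusted p was under 0.05, 3 of 95 with higher HS values (3.16%) and 0 of 97 with lower HS values held it. *Hspd1* and *Hspe1*, which share their element, are both among the 3.

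Of 21 genes on the array that other studies place under HSF1, 3 rose and none fell, and 9 read higher in HS livers at an unadjusted p under 0.05 with none lower. Over all probe sets tested 0.0322% rose and 0.00805% fell. At the unadjusted mark 3.01% of all 8251 genes passed upward and 3.08% downward. Among the 2562 genes with a mean intensity of at least 100 the shares were 5.58% and 5.78%. These shares are the background of the lists below as well. All 3 HS mice lay above all 3 control mice for 8 of the 21, against 4.67% of all genes above and 5.04% below. The median change of the list was log2 0.51, against 0.00 over all genes, and the 3 HS mice read 0.69, 0.31 and 0.47 above the control mean in their own medians. Without HS mouse 5 the count at an unadjusted p under 0.05 was again 9. Over all 8251 genes 178 then read higher and 136 lower, where 248 and 254 did with that mouse. Among the 2562 brighter genes the counts were 87 and 60 without it, and 143 and 148 with it. List counts without HS mouse 5 given below have this smaller background.

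Of 16 genes of Hsp90 and the proteins that load and release its clients, *Cacybp* was called, and in all 5 read higher and 1 lower at an unadjusted p under 0.05, with a median of log2 0.13. Over all genes 3.01% read higher and 3.08% lower at that mark. *Hsp90aa1*, the inducible cytosolic Hsp90, read 2345, 1496 and 3039 in HS mice, against 632, 616 and 491 in control mice. Every HS mouse held more than 2 times the highest control value, the one probe set of the array at an intensity of 100 or more for which that was so in all 3 HS mice. The 3.82-fold difference (log2 1.93, SE 0.36) did not pass the test over all probe sets (adjusted p = 0.095), and it passed without HS mouse 5 (log2 2.21, adjusted p = 0.039). *Stip1*, which hands clients over from Hsp70 to Hsp90, read 456, 357 and 472 in HS mice, against 199.6, 218 and 181 in control mice (log2 1.10, adjusted p = 0.21). *Fkbp4*, a co-chaperone of steroid receptors, read 627, 724 and 773 in HS mice, against 446, 512 and 481 in control mice (log2 0.56, adjusted p = 0.33), and its second probe set showed the same separation, with 507, 575 and 513 in HS mice against 360, 358 and 344 in control mice. *Ppid*, the cyclophilin partner of Hsp90, read 128, 170.2 and 133 in HS mice, against 99.9, 112 and 97.3 in control mice (log2 0.47, unadjusted p = 0.0024). None of the 3 co-chaperones passed the adjusted test, and none of them overlapped between the groups. *Pih1d1*, which works with Hsp90 in assembling small nucleolar particles, pointed the other way, with 128, 148 and 125 in HS mice and 178, 167 and 154 in control mice (log2 -0.32, unadjusted p = 0.041). Without scaling between the arrays, which moved the median of all genes by 0.27 and that of genes of mean intensity 100 or more by 0.41, the value of *Pih1d1* turned to 0.11.

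In the refolding machine of Hsp70, Hsp110 and Hsp40, 3 of 25 genes read higher at an unadjusted p under 0.05 and none lower (3.01% and 3.08% over all genes). None passed the adjusted test. *Hsph1*, the Hsp110 that recharges Hsp70, read 1619.7, 244 and 1362 in HS mice, against 251, 193 and 157 in control mice. HS mice 4 and 6 lay far above every control mouse, and HS mouse 5 lay within the control range. The change was log2 2.05 (SE 0.64, adjusted p = 0.55), and log2 2.92 without HS mouse 5 (adjusted p = 0.068). *Dnaja1*, an Hsp40 that feeds clients to Hsp70, was likewise high in HS mice 4 and 6, with 895, 451 and 818 in HS mice and 411, 379 and 509 in control mice (log2 0.69, unadjusted p = 0.045). *Hspa4*, another Hsp110, read 341, 354 and 431 in HS mice, against 322, 295 and 275 in control mice, with no overlap (log2 0.33, unadjusted p = 0.0067). Its 4 dimmer probe sets all overlapped, the brightest of them reading 79.1, 76.8 and 80.1 in HS mice and 37.2, 91.6 and 78.0 in control mice.

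No Hsp70 gene was called 4 hours after HS. *Hspa1a*, the stress-inducible Hsp70, lay at the floor in all 6 mice. Its near-identical neighbour *Hspa1b*, from which the array may not separate it, read 79.3, 47.9 and 43.4 in HS mice, against 24.2, 25.5 and 31.6 in control mice, above the control mice throughout but dim (log2 1.03, unadjusted p = 0.24). *Hspa8*, the Hsp70 that cells make at all times, read 665, 570.4 and 406 in HS mice and 524, 458 and 536 in control mice (log2 0.09, unadjusted p = 0.66), and *Dnajb1*, an Hsp40 that is a usual HSF1 target, read 29.3, 42.3 and 26.2 in HS mice and 32.1, 39.3 and 53.6 in control mice. Both overlapped. *Hspb1*, the small heat shock protein Hsp25, lay at the floor in every mouse, and *Hspb8*, another of that family, read 1382, 702 and 764 in HS mice and 734, 826 and 761 in control mice, high only in HS mouse 4. *Bag3*, which couples Hsp70 to autophagy, read 129, 126 and 91.3 in HS mice and 46.3, 96.5 and 115 in control mice, with overlap. *Serpinh1*, the collagen chaperone Hsp47, lay at the floor in all 3 control mice and read 60.5, 22.1 and 41.9 in HS mice (unadjusted p = 0.0049).

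Of 13 mitochondrial chaperones and proteases on the array *Hspd1* and *Hspe1* rose, and none fell (0.0322% and 0.00805% of all probe sets). Both are on the HSF1 list as well, so they are no further calls. At an unadjusted p under 0.05, 2 read higher and 1 lower (3.01% and 3.08% over all genes). The HS mice lay above all control mice for 2 and below for 2 (4.67% and 5.04% over all genes). Their partner *Hspa9*, the mitochondrial Hsp70, read 1057, 1216 and 977 in HS mice and 944, 1029 and 891 in control mice (log2 0.18, unadjusted p = 0.094). *Grpel2*, a nucleotide exchange factor of that Hsp70, was lower without overlap, with 109, 67.3 and 77.9 in HS mice and 153, 176 and 149.6 in control mice (log2 -0.94, SE 0.27, adjusted p = 0.53). Its paralogue *Grpel1* read 239.6, 268 and 209 in HS mice and 173, 183 and 252 in control mice. The 62 subunits of oxidative phosphorylation had a median of log2 0.01. At an unadjusted p under 0.05, 2 were higher and 2 lower (3.01% and 3.08% over all genes), and 0 of either without HS mouse 5. *Cycs*, cytochrome c, read 223, 277 and 229.5 in HS mice, against 175, 207 and 182 in control mice (log2 0.37, adjusted p = 0.65).

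Other groups that fold, make and destroy protein had medians above 0 and no called member. Over all genes 3.01% read higher and 3.08% lower at an unadjusted p under 0.05. Of 14 subunits of the TRiC chaperonin and its helper prefoldin, 4 read higher at an unadjusted p under 0.05 and none lower, and 2 did without HS mouse 5 (median log2 0.14, and 0.07 without it). Among the 4 was *Cct5* with 469, 497 and 366 in HS mice, against 332, 357 and 319.6 in control mice (log2 0.39, adjusted p = 0.61). Of 34 genes of folding in the endoplasmic reticulum 7 read higher and none lower. *Serp1*, which protects nascent membrane proteins, read 881, 1112 and 847 in HS mice, against 645, 595 and 728 in control mice (log2 0.52, adjusted p = 0.55). *Ppib*, a secretory cyclophilin, read 587, 644 and 593 in HS mice, against 559.6, 490.0 and 535 in control mice, a small difference without overlap (log2 0.20, unadjusted p = 0.0062). *Hspa5*, the endoplasmic reticulum Hsp70 BiP, read 1114, 1404 and 739.8 in HS mice and 659, 800.5 and 879 in control mice, and overlapped. Without HS mouse 5, 2 of the 34 were left at an unadjusted p under 0.05. In single mice the median of these 34 lay at log2 0.06, 0.45 and 0 in HS mice 4, 5 and 6. In control mice 1, 2 and 3, each against the other control mice, it lay at -0.01, 0 and 0.10.

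Of 40 genes of ubiquitin and the proteasome 35 had changes above 0 and 5 below, with a median of log2 0.17, and 7 read higher at an unadjusted p under 0.05 with none lower. Of all 8251 genes 3032 had changes above 0 and 3123 below. At that p 3.01% of all genes read higher and 3.08% lower, and 5.58% and 5.78% of those with a mean intensity of at least 100. *Psmc2*, an ATPase of the proteasome cap, read 324, 366 and 297 in HS mice, against 218, 222 and 244 in control mice, and *Psma3*, of the core ring, read 794, 1006 and 789.7 in HS mice, against 618, 673 and 650.4 in control mice. The HS mice lay above the control mice for both (log2 0.52 and 0.41, adjusted p = 0.33 and 0.50). Of 42 tRNA synthetases and translation factors 8 read higher and 1 lower. *Tars*, the threonine enzyme, read 204, 246 and 149 in HS mice, against 104, 129.7 and 136 in control mice (log2 0.68, unadjusted p = 0.0048). Without HS mouse 5, 3 genes of each of these lists were left at an unadjusted p under 0.05. In single mice the median of the proteasome list lay 0.17, 0.25 and 0.06 above the control mean in HS mice 4, 5 and 6, and that of the translation list 0.09, 0.37 and 0.03. In control mice 1, 2 and 3, each against the other control mice, the medians were -0.10, 0.09 and 0.01, and -0.08, 0 and 0.05. HS mouse 6 did not exceed the highest control mouse in either list.

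Of 29 genes of RNA splicing 9 read higher at an unadjusted p under 0.05 and none lower (3.01% and 3.08% over all genes), and 6 were left without HS mouse 5. The HS mice lay above all control mice for 9, as they did for 4.67% of all genes. *Hnrnph1*, a splicing repressor, read 235, 233 and 239 in HS mice, against 112, 189 and 119.5 in control mice (log2 0.79, SE 0.18, adjusted p = 0.33). The 3 HS mice were nearly equal, and all lay above the control mice. *Hnrnpa2b1* read 332, 431 and 322 in HS mice, against 240.3, 242 and 221 in control mice (log2 0.61, adjusted p = 0.43), and its second probe set also separated the groups. *U2af1*, which marks the end of an intron, read 293, 286 and 217 in HS mice, against 159.8, 176 and 198 in control mice (log2 0.57, adjusted p = 0.53). *Srsf2*, an SR protein, read 646, 1162 and 662 in HS mice, against 570.4, 570.4 and 616 in control mice, higher by far in HS mouse 5 than in the others (log2 0.44, and 0.16 without that mouse). Its dimmer probe set read 90.4, 204 and 98.3 in HS mice, against 67.4, 43.3 and 29.7 in control mice, without overlap (log2 1.46, and 1.09 without HS mouse 5).

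**Figure D2:**
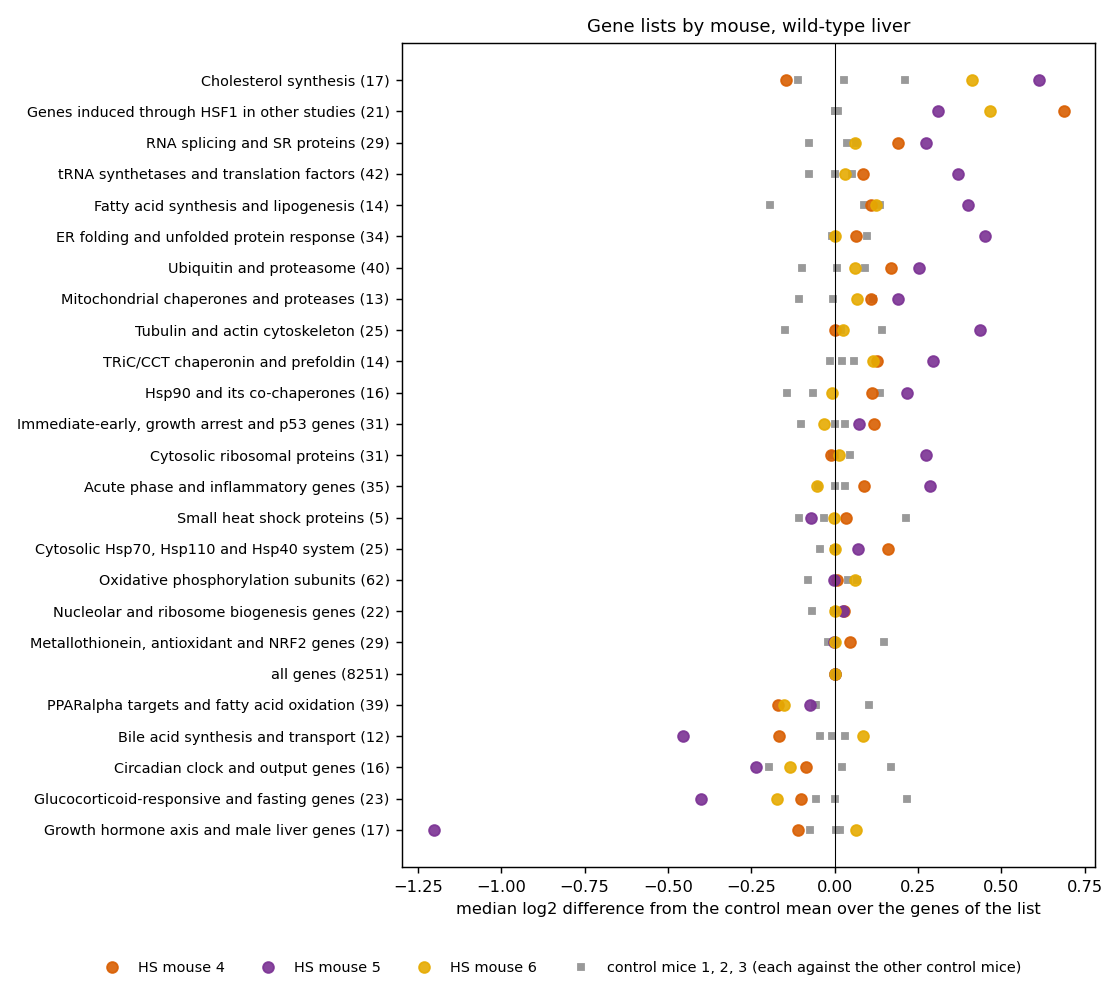
Median log2 difference from the control mean over the genes of 24 lists, and over all 8251 genes, in each HS mouse (coloured points) and in each control mouse against the other control mice (grey squares), with the number of genes on the array in brackets. HS mice 4, 5 and 6 all lie above the 3 control mice for the HSF1 list, at 0.69, 0.31 and 0.47, while HS mouse 5 alone is at -1.20 for the growth hormone and male liver list.

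Of 39 PPARα targets and genes of fatty acid oxidation on the array 7 read lower and 2 higher at an unadjusted p under 0.05 (3.08% and 3.01% over all genes). The HS mice lay below all control mice for 10 and above for 2 (5.04% and 4.67% over all genes), and the median was log2 -0.09. *Acsl4* was the only member called, and it rose. *Cpt1a*, which admits fatty acids to mitochondria and limits their oxidation, read 1159, 611 and 1258 in HS mice, against 1407, 1411 and 1864 in control mice (log2 -0.68, SE 0.21, adjusted p = 0.55). *Cpt2*, its partner on the inner membrane, read 909, 979.7 and 1010.2 in HS mice, against 1212, 1109 and 1251 in control mice (log2 -0.30, unadjusted p = 0.017). *Acads*, the dehydrogenase of short chains, read 368, 344 and 379 in HS mice, against 437, 462 and 420.0 in control mice (log2 -0.28, unadjusted p = 0.014). All 3 steps read lower in every HS mouse than in any control mouse. The difference was log2 -0.36 for *Cpt1a*, -0.31 for *Cpt2* and -0.24 for *Acads* when HS mouse 5 was left out. Without scaling between the arrays *Cpt2* turned to log2 0.094, *Acads* to 0.13 and *Acaa1b* to 0.014, while the median of genes of mean intensity 100 or more was 0.41, so relative to it they stayed lower. *Acaa1b*, a peroxisomal thiolase, read 1749.6, 2145 and 1837 in HS mice, against 2189.6, 2281 and 2653 in control mice (log2 -0.31, adjusted p = 0.53), and its dimmer probe set overlapped. *Pex11a*, a peroxisome division factor, read 268, 150.3 and 221 in HS mice, against 275, 319.6 and 417 in control mice (log2 -0.68, unadjusted p = 0.011). *Etfa*, which passes electrons from the dehydrogenases to the respiratory chain, pointed the other way, with 585, 640.5 and 590.2 in HS mice and 514, 496 and 509 in control mice (log2 0.26, unadjusted p = 0.030). Without HS mouse 5, 5 of the 39 were lower and 1 higher at an unadjusted p under 0.05, with a median of log2 -0.17.

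Of 23 fasting and glucocorticoid genes 4 read lower and 1 higher at an unadjusted p under 0.05, which 3.08% and 3.01% of all genes did. None was called, and none was left at that mark without HS mouse 5. Over all 8251 genes 136 were left lower without that mouse, against 254 with it. *G6pc*, which releases glucose from the liver, read 497, 365 and 319 in HS mice, against 539, 883 and 1029 in control mice (log2 -1.03, unadjusted p = 0.035). *Igfbp1*, a carrier of insulin-like growth factors that fasting raises, read 241, 35.0 and 100.2 in HS mice and 427, 239 and 392 in control mice (log2 -1.85, unadjusted p = 0.010). *Angptl4*, an inhibitor of lipoprotein lipase, read 311, 127 and 314 in HS mice, against 353, 424 and 532 in control mice (log2 -0.90, unadjusted p = 0.033). HS and control mice were apart for *G6pc* and *Angptl4*, and for *Igfbp1* HS mouse 4 reached the lowest control mouse. The change was log2 -0.98 for *G6pc*, -1.14 for *Igfbp1* and -0.46 for *Angptl4* when HS mouse 5 was left out. A second probe set of *Angptl4* overlapped, with 264, 92.7 and 232 in HS mice and 229, 289 and 318 in control mice. Of 12 bile acid genes 3 read lower at an unadjusted p under 0.05 and none higher (3.08% and 3.01% over all genes), and 1 was left without HS mouse 5. *Hsd3b7*, an early enzyme of bile acid synthesis, read 1425, 1429 and 1132 in HS mice, against 1667, 1906 and 1700.2 in control mice (log2 -0.41, SE 0.12, adjusted p = 0.55). *Slc27a5*, which activates bile acids for conjugation, read 1767, 1239.7 and 1708 in HS mice, against 2033, 2145 and 1957 in control mice (log2 -0.40, adjusted p = 0.64). The groups did not overlap for either enzyme.

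**Figure D3:**
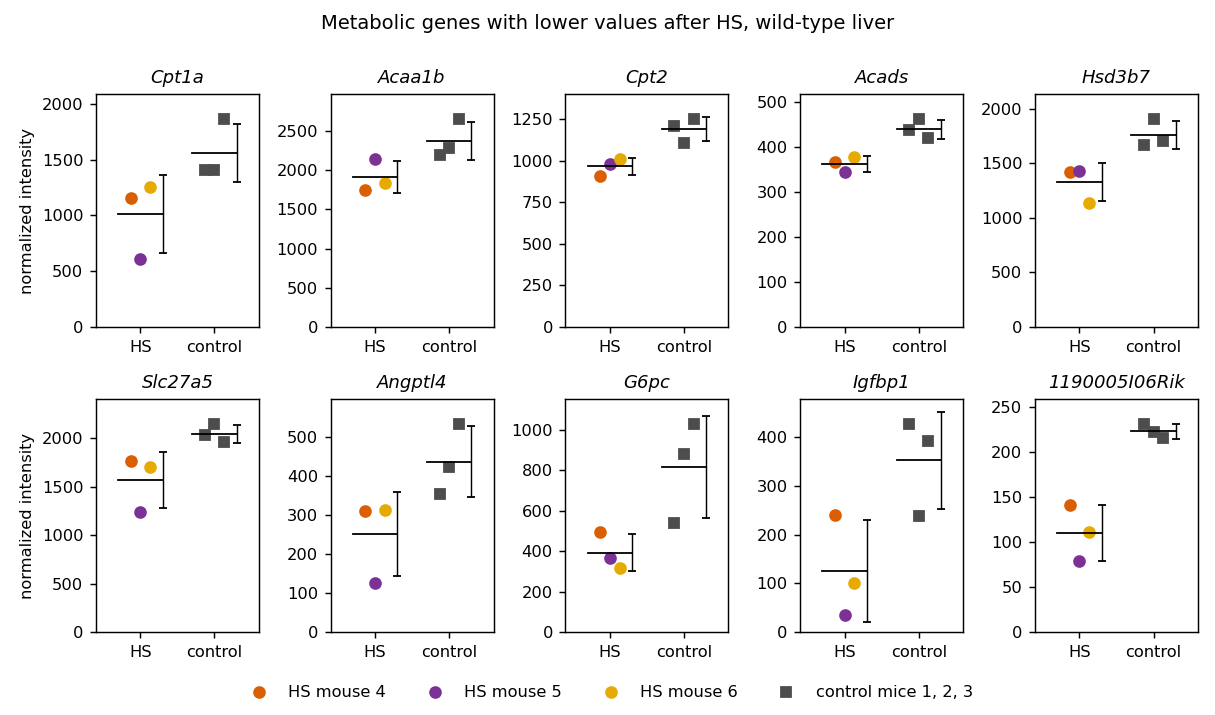
Normalized intensity of 10 genes with a lower mean in the 3 HS mice (coloured points) than in the 3 control mice (squares), with the group mean (horizontal line) and its SD (bar). The groups do not overlap for *Cpt1a*, with HS mice at 611 to 1258 and control mice at 1407 to 1864. HS mouse 5 is the lowest for *Cpt1a*, *Acads*, *Slc27a5*, *Angptl4*, *Igfbp1* and the transcript 1190005I06Rik.

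None of the genes named next passed the adjusted test. Of 35 acute phase and inflammatory genes 2 read higher and 1 lower at an unadjusted p under 0.05 (3.01% and 3.08% over all genes), and 1 and 0 did without HS mouse 5. Among bright genes, with a mean of at least 100, 143 of 2562 (5.58%) read higher and 148 (5.78%) lower at an unadjusted p under 0.05. *Saa3*, an acute phase protein, read 716, 131 and 155 in HS mice, against 36.6, 40.3 and 69.9 in control mice (log2 2.38, SE 0.77, adjusted p = 0.58), and HS mouse 4 was far above the others. *Cxcl1*, a neutrophil attractant, read 242, 334 and 90.8 in HS mice and 71.4, 79.7 and 129 in control mice by its brighter probe set, where HS mouse 6 overlapped, and 178, 337 and 107 in HS mice and 86.7, 38.3 and 79.4 in control mice by the other, where none did. *Nfkbia*, the inhibitor of NF-κB, was lower without overlap, at 177, 120.2 and 142 in HS mice and 208, 265 and 288 in control mice (log2 -0.80, unadjusted p = 0.021), while its dimmer probe set overlapped. *Avil*, an actin-binding protein, read 30.5, 193 and 133 in HS mice, against 17.6 in control mouse 1 and the floor in control mice 2 and 3. *Skiv2l*, a helicase of RNA decay, read 155, 153 and 193 in HS mice, against 87.7, 99.7 and 62.0 in control mice (log2 1.03, unadjusted p = 0.0020). *Jak1*, a kinase of cytokine receptors, read 191, 204 and 202 in HS mice, against 138, 66.5 and 106 in control mice, and *Lsr*, a lipoprotein receptor, read 351, 589 and 459 in HS mice, against 301, 256 and 163 in control mice by its dimmer probe set. The HS mice were above the control mice for each, as they were for *Skap2*, an adaptor of immune cells, and for *Mid1ip1*, a regulator of fatty acid synthesis, in which HS mouse 5 at 503 was far above the others. The genes from *Avil* on were picked among those without overlap, so their separation was fixed by that choice.

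Among the largest negative differences was that of *Hyal2*, a hyaluronidase, which lay at the floor in HS mice 4 and 6 and read 42.6 in HS mouse 5, against 157, 208 and 125 in control mice (log2 -2.87, adjusted p = 0.58). The uncharacterised transcript 1190005I06Rik read 141, 79.3 and 112 in HS mice, against 231, 223 and 216 in control mice (log2 -1.05, SE 0.21, adjusted p = 0.19). *Alas1*, the first enzyme of heme synthesis, read 567, 1235 and 1254 in HS mice, against 2103, 1457 and 2823 in control mice (log2 -1.10, unadjusted p = 0.040). All 3 separated the groups, as the rule that named them required. *Krtdap*, a squamous epithelial gene, lay at the floor in all HS mice and read 91.4, 228 and 23.7 in control mice, high in the 2 control mice with the squamous transcripts described above. *Mknk2*, a kinase of translation initiation, was lower without overlap by both of its probe sets, the brighter reading 355, 158 and 385 in HS mice and 630.2, 446 and 501 in control mice. *Slc1a2*, a glutamate transporter, read 45.3 and 27.5 in HS mice 4 and 5 and lay at the floor in HS mouse 6, against 175, 154 and 56.9 in control mice. *Pim3*, a kinase, read 115, 89.2 and 107 in HS mice, against 217, 178 and 371 in control mice. *Gtpbp2*, a GTPase, and the transcript C77080 were lower without overlap as well, and *Rps29*, a ribosomal protein, was so by its brighter probe set only, its dimmer one being near the floor. The genes of this paragraph were picked among those without overlap, so their separation is no further result.

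HS mouse 5 differed from HS mice 4 and 6 in many genes. It held 83 probe sets at least 2-fold above the range of the 3 control mice and 104 at least 2-fold below, at an intensity of 100 or more, while HS mouse 4 held 9 and 6 and HS mouse 6 held 17 and 11. Each control mouse held 18 to 24 above and 16 to 22 below the other 2 control mice. A range of 2 mice is narrower than one of 3, so these counts cannot be set directly against those of the HS mice. Genes were named here for their distance from HS mice 4 and 6, and the values are a description. *Lcn2*, an iron-binding acute phase protein, read 200.3, 1212 and 48.0 in HS mice and 147, 93.4 and 179 in control mice. *Orm2*, another acute phase protein, read 422, 2571 and 80.6 in HS mice and 319, 132 and 345 in control mice. *Fasn*, fatty acid synthase, read 186, 1317 and 249.7 in HS mice and 194, 262 and 173 in control mice. HS mouse 5 alone was high for these, and likewise for *Cyp4a14*, a fatty acid hydroxylase and PPARα target, at 229, 1837 and 273 in HS mice and 239, 386 and 443 in control mice. *Tubb2a*, a tubulin, read 179, 851 and 131 in HS mice and 91.1, 136 and 59.7 in control mice. *Cyp17a1*, a steroid hydroxylase, read 71.8, 397 and 55.5 in HS mice and 76.9, 95.8 and 86.7 in control mice, and *Plk1*, a mitotic kinase, read 140.0, 318 and 22.8 in HS mice and 70.1, 46.4 and 87.7 in control mice by its brightest probe set. A dimmer probe set of *Lcn2* was also highest in HS mouse 5, with 48.3, 82.3 and 56.8 in HS mice and 49.3, 39.8 and 57.8 in control mice. Dimmer probe sets of *Tubb2a*, *Cyp17a1* and *Plk1* did not show the height of HS mouse 5. That of *Tubb2a* lay at the floor in all HS mice. That of *Cyp17a1* read 21.3, 43.7 and 23.4 in HS mice and 20.0, 61.2 and 57.1 in control mice. Those of *Plk1* lay at the floor in all 3 HS mice, and 1 of them read 31.8, 34.9 and 55.6 in control mice.

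In the other direction, HS mouse 5 was low for several genes of male liver. *Hsd3b5*, a male-specific steroid enzyme, lay at the floor in HS mouse 5 and read 522 and 749.8 in HS mice 4 and 6, and 545, 709 and 568 in control mice. *Cyp8b1*, which makes cholic acid, read 1254, 111 and 1563 in HS mice and 1228, 1008 and 979.7 in control mice. *Cyp4a12b*, a hydroxylase of male liver and kidney, read 1470.0, 116 and 1329.9 in HS mice and 1554, 1401 and 1470.0 in control mice. HS mice 4 and 6 lay near the control mice for all 3. *Ghr*, the growth hormone receptor, read 696, 239 and 719.7 in HS mice and 711, 692 and 788 in control mice. *Dbp*, a clock output factor, lay at the floor in HS mouse 5 alone, with 192 and 217 in HS mice 4 and 6 and 302, 181 and 266 in control mice. By its median the list of 16 clock genes did not set that mouse apart, at log2 -0.08, -0.24 and -0.14 in HS mice 4, 5 and 6 and -0.20 in control mouse 2. Their summed intensity did, at 1838, 1244.5 and 1902.5 in HS mice 4, 5 and 6 and 1798 to 2461 in control mice. Further members of the list, like *Dbp*, were lowest in HS mouse 5. *Alas2*, the heme enzyme of erythroid cells, read 348, 36.5 and 389.8 in HS mice and 443, 418 and 354 in control mice. *Sct*, secretin, lay at the floor in HS mouse 5 by 1 probe set and read 586, 529 and 603 in HS mice and 555, 561 and 676 in control mice by another. Of 17 genes of cholesterol synthesis 3 read higher at an unadjusted p under 0.05 (3.01% over all genes) and none did without HS mouse 5. Their median lay at log2 -0.15, 0.61 and 0.41 in HS mice 4, 5 and 6, so HS mouse 5 was not alone in reading high. Over the 17 genes of the growth hormone axis and male liver the median lay at log2 -0.11, -1.20 and 0.06 in HS mice 4, 5 and 6. None of these genes passed the adjusted test. Without HS mouse 5 the change of *Fasn* was log2 0.07 and that of *Hsd3b5* 0.05.

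**Figure D4:**
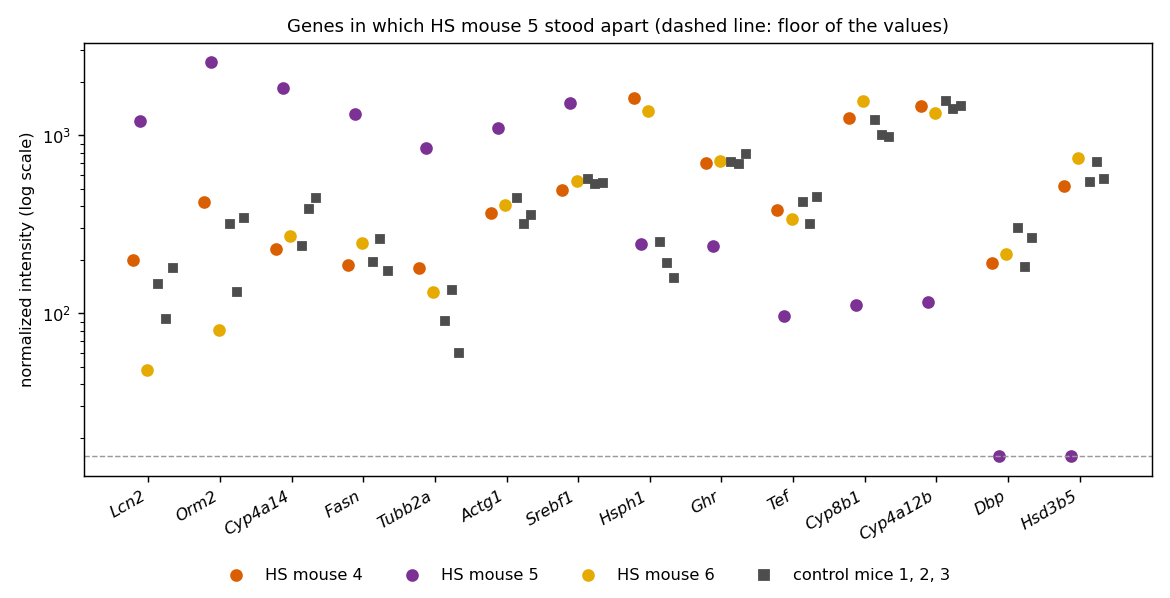
Normalized intensity (log axis) of 14 genes in which HS mouse 5 stood apart, in the 3 HS mice (coloured points) and the 3 control mice (squares) of the wild-type strain, with the floor as a dashed line. HS mouse 5 lies far above the other mice for *Lcn2*, *Orm2*, *Cyp4a14*, *Fasn* and *Tubb2a*, below them for *Cyp8b1* and *Hsd3b5*, and with the control mice for *Hsph1*.

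The 4 genes that rose in wild-type liver were read in the 3 further HS comparisons, each against its own unheated mice. *Hspd1* rose in PPARα-null mice by log2 0.56 (SE 0.10, adjusted p = 0.0032) and in wild-type mice on WY by 0.52 (adjusted p = 0.032), and it differed in null mice on WY by 0.61 (adjusted p = 0.051). *Hspe1* rose in null mice by log2 0.81 (adjusted p = 0.011), with 0.83 in wild-type and 0.90 in null mice on WY (adjusted p = 0.058 and 0.11). For both genes the 4 differences were of like size. The background was uneven: 3.45% of genes rose and 4.48% fell in null mice, 0.315% and 0.194% in wild-type mice on WY, and 0.0121% and 0.0242% in null mice on WY. *Cacybp* rose in wild-type mice on WY (log2 1.10, adjusted p = 0.018) and read 0.63 in null mice and 0.61 in null mice on WY. *Acsl4* passed the test in none of the others, at log2 0.68 in null mice, 0.27 in wild-type mice on WY and 0.48 in null mice on WY. The unheated mice of these sets read 187 to 249.2 (null, control chow), 213 to 286 (wild-type, WY) and 115 to 167 (null, WY) for *Acsl4*, above the highest wild-type control mouse in the first 2 sets.

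*Hsp90aa1* rose by log2 1.80 in null mice (adjusted p = 0.0054), and read higher by 1.47 and 1.77 in wild-type and null mice on WY (adjusted p = 0.10 and 0.11). *Hsph1* read 1572, 1563 and 342 in the 3 HS null mice, against 399, 147 and 187 in the null control mice, so 1 of 3 HS mice stayed within the range of unheated mice there too. On WY all 6 HS mice read 1231 to 2169 for *Hsph1*, and their unheated groups 179 to 334. *Stip1* rose in wild-type mice on WY (log2 1.51, adjusted p = 0.0038) and overlapped between HS and control in null mice, with 235, 211 and 187 in HS null mice and 308, 167 and 153 in null control mice. *Hspa1a*, at the floor in all 6 wild-type mice on control chow, read 1899, 3076 and 1531 in wild-type HS mice on WY and lay at the floor in their unheated mice on WY.

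**Figure D5:**
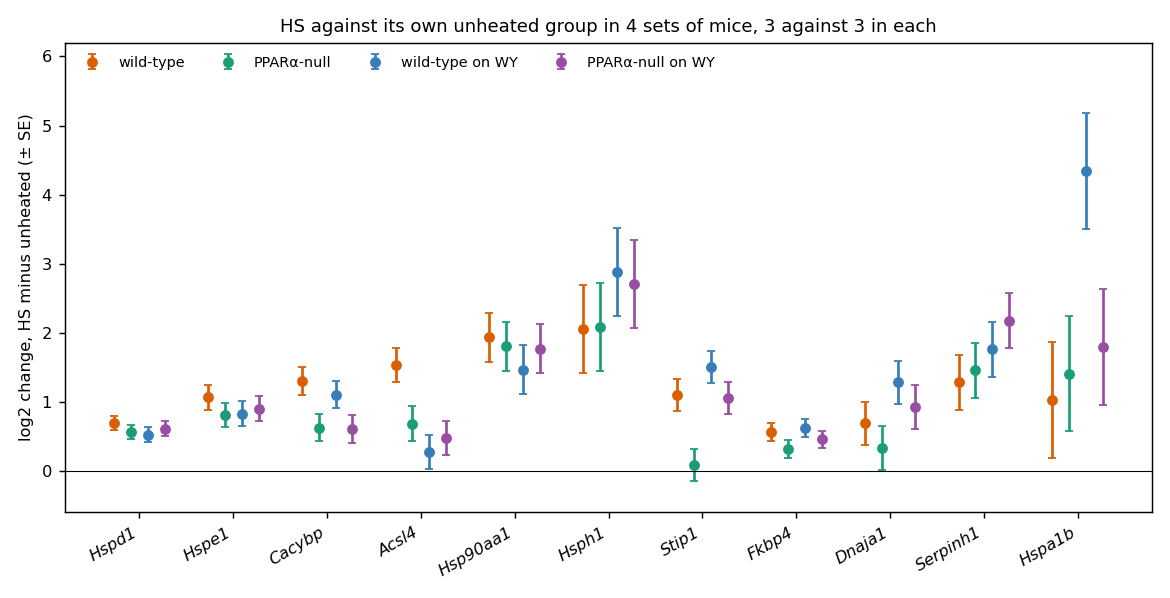
Log2 change with HS against the unheated group of the same strain and diet, with its SE, for 11 genes in wild-type mice, PPARα-null mice, wild-type mice on WY and null mice on WY (3 HS against 3 unheated mice in each). *Hspd1* and *Hspe1* change by similar amounts in the 4 sets, at 0.52 to 0.69 and 0.81 to 1.06, and *Hspa1b* has its largest change, 4.34, in wild-type mice on WY.

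The differences between these changes were tested directly. Over all probe sets 201 (1.62%) changed differently with HS in null than in wild-type mice on control chow, and 13 (0.105%) differently on WY than on control chow in wild-type mice. None of the 4 genes that rose was among them. The change in null minus the change in wild-type mice was log2 -0.13 for *Hspd1* (95% confidence interval -0.44 to 0.18), -0.25 for *Hspe1* (-0.79 to 0.28) and -0.13 for *Hsp90aa1* (-1.20 to 0.94). For *Cacybp*, *Acsl4* and *Stip1* it was -0.68 (-1.27 to -0.09), -0.84 (-1.59 to -0.10) and -1.02 (-1.71 to -0.33), with limma adjusted p = 0.29, 0.29 and 0.14. The intervals of these 3 lie below 0 before adjustment over all probe sets. These genes were named partly for their large rise in wild-type mice, and that rise is subtracted here. The choice by itself favours a difference below 0, so the unadjusted intervals are no support for a weaker change in null mice. The interval of *Hsp90aa1* spans more than 2 log2 units, so a sizeable difference between the strains was within its error. The change on WY minus the change on control chow was -1.26 for *Acsl4* (95% confidence interval -1.998 to -0.52, adjusted p = 0.35) and -0.17 for *Hspd1* (-0.48 to 0.14). It subtracts the wild-type rise on control chow too, so the same limit holds.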

How the data were processed

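Liver RNA of 24 mice, 1 array per mouse in 8 groups of 3, was hybridised to Affymetrix U74Av2 arrays. The authors deposited linear probe set intensities with background subtracted, of which 24.1% were 0 or below, and neither the summary method nor any scaling is named in the labels, methods or table. Arrays give no count of molecules, so the number of mice limits the precision. Intensities were quantile normalized over the 24 arrays, floored at 15.7 (the size of the 10th percentile) and taken to log2. The 66 control probe sets were left out. A single limma fit of the 8 group means (16 residual degrees of freedom) tested 12422 probe sets with Benjamini-Hochberg adjustment, and the interactions were contrasts of that fit. Of these probe sets 10833 had 1 symbol in the platform annotation, 396 several and 1193 none. R 4.3.3, limma 3.58.1, Python 3.11.15 and pandas 2.3.3 were used. The script was tested on simulated data.

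Genes to name were drawn from those called, the 14 largest separated differences each way at an intensity of at least 100, the 4 members of each list with the smallest unadjusted p, the genes the study names for HS, and the 6 genes each way in which HS mouse 5 lay farthest from HS mice 4 and 6. Of the 136 genes this gave, 66 are in the text. Other list members named were chosen after their values were seen. Members and lists were chosen with earlier results of these data known. Promoter windows of 6576 of 8251 genes were found in RefSeq's table (GRCm38.p6). Alternatives were other scalings, floors and filters, trend and robust moderation, array weights, fewer arrays in the fit, the methods' analysis of variance, and leaving out each mouse.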

Additional observations from a re-analysis of the deposited data

Results flagged for a closer look

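Of the 593 genes on the lists, the change after HS differed between the strains on control chow in 23 and between the diets in wild-type mice in 3, by limma's test of the difference itself, adjusted over all probe sets. Over all 8251 genes the counts were 155 and 10, and over the 2562 with a mean intensity of at least 100 they were 102 and 6. Those among the named genes are given here. *Serp1* read 586, 424 and 568 in HS null mice, against 794, 713 and 860 in null control mice, and its change in null minus that in wild-type mice was log2 -1.12 (adjusted p = 0.017). *Ppib* read 389, 391 and 453 in HS null mice, against 634, 647 and 586 in null control mice (difference of changes -0.804, adjusted p = 0.00015). *Sec61a1*, a subunit of the channel into the endoplasmic reticulum, read 307, 299.6 and 333 in HS null mice, against 570.4, 581 and 435 in null control mice (-1.07, adjusted p = 0.017). These 3 genes of the endoplasmic reticulum fell after HS in null mice, and read higher in wild-type mice, where they were not called. *Psmc2* read 219, 222 and 248 in HS null mice, against 325, 279 and 270.0 in null control mice (-0.866, adjusted p = 0.015). *Cycs* read 145, 135 and 134 in HS null mice, against 189, 217 and 183 in null control mice (-0.875, adjusted p = 0.020). *Igfals*, a liver carrier of insulin-like growth factors, lay at the floor in 2 HS null mice and read 21.0 in the other, against 362, 251 and 141 in null control mice (-3.00, adjusted p = 0.0025). *Cycs* and *Igfals* fell in null mice, and in wild-type mice the HS mean was higher for *Psmc2* and *Cycs* and lower for *Igfals* (230.1 in HS mice and 370.1 in control mice). *Acaa1b* read 1676, 1889 and 1943 in HS null mice, against 1377, 1407 and 1457 in null control mice (0.689, adjusted p = 0.013). The transcript 1190005I06Rik read 196, 199 and 170 in HS null mice, against 164, 123 and 113 in null control mice (1.57, adjusted p = 0.014). *Acaa1b* rose in null mice, and both read lower after HS in wild-type mice.

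By diet, *Dnajb1* read 764, 1266 and 451 in wild-type HS mice on WY, against 46.7, 45.5 and 62.2 in wild-type mice on WY, and its change there exceeded that on control chow by log2 4.25 (adjusted p = 0.0021). *Hspa1a* changed more after HS on WY than on control chow in wild-type mice, by log2 7.04 (95% confidence interval 4.84 to 9.25, adjusted p = 0.0056), a value that depends on the floor since its unheated mice and the HS mice on control chow lay there. *Hspa1b* is a near-identical copy, so the value of either gene is uncertain.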

How the results depend on the processing

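No paired analysis was possible because the labels number all mice singly and tie none of them across groups. The count of probe sets called, 5 in the main fit, was 0 with arrays scaled to a common median and 15 without scaling. It was 11 with the floor at the 5th percentile, 8 on an asinh scale, 9 among probe sets of mean intensity 100 or more and 16 with array weights. With only the 6 arrays it was 1, a probe set that is none of the 5, and 0 with these normalized among themselves. It was 2 with the 12 wild-type arrays, and 17 and 77 by the methods' analysis of variance over 8 groups and within wild-type groups. Leaving out 1 mouse gave 0 to 12. The 201 probe sets that differed by genotype numbered 103 with a common median, 27 without scaling, 112 on the asinh scale, 507 with array weights and 115 to 160 without 1 mouse. The 13 that differed by diet numbered 2639 without scaling, 21 with the 5th percentile floor, 7 on the asinh scale, 4 among bright probe sets, 32 with array weights, 3 with the 12 wild-type arrays and 13 to 20 without 1 mouse. The share of chaperone promoters with an element was 35% with 2 units in place of 3, against 14.6% of genes on the array and 17% of all genes with 2 units. Without scaling, log2 changes turned to 0.058 for the unnamed probe set that fell, 0.13 for *Acads*, 0.094 for *Cpt2*, 0.10 for *Dnajb1*, 0.11 for *Pih1d1* and 0.014 for *Acaa1b*, and with array weights to -0.20 for *Cyp4a14* and -0.10 for *Cyp17a1*. Leaving out 1 mouse turned the sign of some genes, with ranges from -0.46 to 1.04 for *Cyp4a14*, -1.52 to 0.39 for *Cyp8b1*, -0.077 to 0.41 for *Hspb8*, -0.46 to 1.87 for *Lcn2*, -0.40 to 2.09 for *Orm2*, -2.74 to 0.052 for *Hsd3b5*, -0.45 to 0.97 for *Cyp17a1*, -0.22 to 1.68 for *Plk1*, -0.050 to 0.33 for *Dnajb6* and -0.069 to 0.29 for *Hspa8*. The other genes described in the text kept their sign in these settings. The cause of these shifts was not tested. Values near the floor, where signal does not exceed background, hold no order.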
